A study of Mus musculus with 4 samples.

Results

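Genes for transcription factors of the switch from making neurons to making glia, and of cortical neuron maturation, are described here in mouse cortex with and without Pax6 function. They are 7: the 4 nuclear factor I genes Nfia, Nfib, Nfic and Nfix, and the 3 zinc finger repressor genes Zbtb18, Zbtb20 and Bcl6, taken by name from a deposited table of 22770 genes. Each was found once, and each passed the filter on low values, with no value under 2.92 FPKM. RNA came from dissected cortex of embryos at embryonic day 16.5, in 2 libraries from wild-type littermates and 2 from Pax6 sey/sey embryos, which carry the Sey allele of Pax6 on both chromosomes, all on a mixed background of C57BL/6J, 129S6 and CD1. Sey is a mutation of the germ line, so Pax6 was changed in every cell and at every stage, and not in cortex alone. Nothing in the labels ties a library to its own embryo, so the p-values measure only the spread between these libraries, which may be technical.

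Nuclear factor I (NFI) proteins bind DNA as dimers through a conserved amino-terminal domain and act as activators or repressors. In the embryonic cortex they help radial glia, the progenitors, to leave self-renewal, first for neurons and later for astroglia. Zbtb18 (also called RP58), Zbtb20 and Bcl6 belong to a family whose members pair a BTB domain, which binds partner proteins and corepressors, with zinc fingers that bind DNA. Zbtb18 is known for shutting off proneural genes in newborn cortical neurons, Zbtb20 for hippocampal identity, astrocyte formation and the timing of layers, and Bcl6 for silencing Notch target genes as progenitors become neurons.

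Values are FPKM, fragments scaled by exon length and by the mapped total of the library, so levels of different genes can be set side by side per length. Library totals lay between 579698 and 593256 FPKM, and sequencing depth relative to wild-type library 1, read from genes with the fewest fragments, was 0.782 for the second wild-type library, 0.866 for the first mutant and 1.19 for the second. Differences are on the scale of log2(FPKM + 0.5), mutant minus wild type, tested with limma over 15399 genes and called at an adjusted p under 0.05. Pax6 RNA itself was 28.8 and 27.0 FPKM in wild-type cortex and 100.7 and 120.3 FPKM in the mutants. The Sey allele leaves a transcript, so this level does not check the genotype. Markers of cortical glutamatergic neurons were abundant in every library. Of 6 listed 6 were tested, and 5 were lower in the mutants by the test (83.3%, beside 3.48% called over all tested genes). Their summed level was 1091 and 1166 FPKM in wild-type cortex and 662.01 and 593 FPKM in the mutants. The tissue label therefore had its defining markers.

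Of the 7 genes, 1 fell, Bcl6, and 0 rose. Over all tested genes 3.48% were called, with 1.46% lower and 2.02% higher in the mutants. The median change of the 7 was 0.0086 on the log2 scale, beside 0.00062 for all tested genes. Both mutants lay on 1 side of both wild types for 3 of the 7 (Bcl6, Nfix and Zbtb20), and the same held for 51.6% of all tested genes. In bulk tissue, fewer cells of a type and less RNA per cell cannot be told apart, which holds for every gene below. Markers of other cells moved with the genotype too. The 6 markers of ventral and GABAergic cells all rose, with a median log2 difference of 2.92, and summed to 113 and 92.4 FPKM in wild-type cortex and 643 and 741 FPKM in the mutants, and their part in the members' values was not tested.

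**Figure D1:**
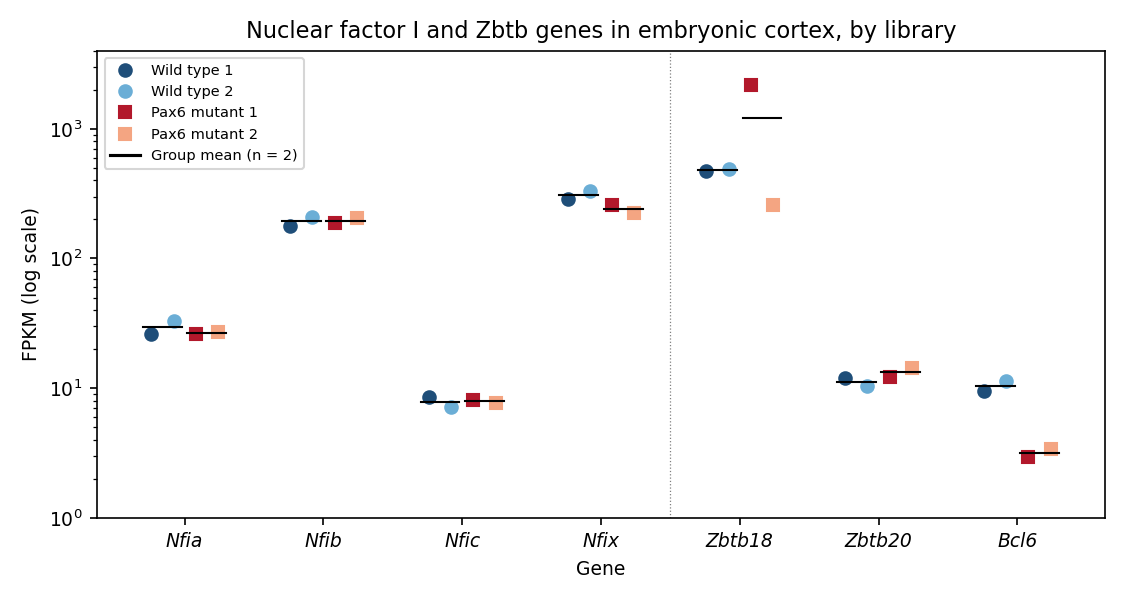
FPKM on a log axis of the 7 genes in each library (circles, wild types; squares, Pax6 mutants), where a black line gives the mean of each group (n = 2). Bcl6 lies at 9.55 and 11.3 FPKM in wild-type cortex and at 2.92 and 3.41 FPKM in the mutants, and Zbtb18 at 2159.7 FPKM in mutant 1 and 261 FPKM in mutant 2.

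In wild-type cortex the 7 genes covered a wide range of levels. Zbtb18 was highest, at 480.4 ± 12.7 FPKM (SD, n = 2), the 139th highest mean among the tested genes. Nfix followed at 311 ± 31.5 FPKM and Nfib at 195 ± 22.6 FPKM. Nfia was far lower at 29.5 ± 4.74 FPKM. Zbtb20 at 11.2 ± 1.07 FPKM and Bcl6 at 10.4 ± 1.21 FPKM exchanged places between the wild-type libraries, so these neighbours did not differ beyond their spread. Nfic was lowest at 7.88 ± 0.968 FPKM. In the mutants the order from Zbtb18 through Nfix, Nfib and Nfia to Zbtb20 was the same in both libraries, while Bcl6 had moved below Nfic to the last place in both.

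The 4 NFI genes are paralogs that arose by duplication, and fragments from their shared DNA-binding region could in principle be counted for the wrong gene. Their coding sequences in the GENCODE M21 annotation of GRCm38 were therefore compared. The longest identical coding stretch was 32 bases, between Nfic and Nfix, followed by 21 bases between Nfib and Nfix, and 17 or 18 bases for the other 4 pairs. The 50 bases around the longest stretch are shown because they hold the longest coding run that any pair shares, that of Nfic and Nfix. All lie in exon 2, at chr4:97783154-97783203 on the plus strand for Nfia, chr4:82498648-82498697 on the minus strand for Nfib, chr10:81420677-81420726 on the minus strand for Nfic and chr8:84772194-84772243 on the minus strand for Nfix. Capitals mark the 38 bases that are the same in all 4 genes.
Nfia: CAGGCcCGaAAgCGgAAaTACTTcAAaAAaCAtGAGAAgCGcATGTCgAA
Nfib: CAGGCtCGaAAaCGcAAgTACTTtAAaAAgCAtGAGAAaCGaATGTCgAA
Nfic: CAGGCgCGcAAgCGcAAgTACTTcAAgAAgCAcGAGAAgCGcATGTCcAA
Nfix: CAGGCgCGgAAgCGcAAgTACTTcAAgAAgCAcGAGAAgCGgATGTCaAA
Nfic and Nfix shared 47 of these 50 bases, and the other pairs 41 or 42. The sources used here do not state the read length, so how far fragments of Nfic and Nfix were kept apart is uncertain.

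Nfix was the NFI gene with the largest difference, and it was not called. Nfix lies on chromosome 8 from 84699876 to 84800344 in GRCm38, on the minus strand. It is the family member most tied to the timing of hippocampal and cortical neuron production and to adult neural stem cells. It stood at 289 and 334 FPKM in wild-type cortex and at 258 and 223 FPKM in mutant cortex. The groups did not overlap, but the higher mutant and the lower wild type were close. The log2 difference was -0.37 (SE 0.10, 95% interval -0.64 to -0.10), with an unadjusted limma p of 0.0161 and an adjusted p of 0.151. In the authors' deposited table the ratio of mutant to wild type for Nfix is 0.773, with a p-value of 0.00435 whose test is not stated. Of the genes annotated on the opposite strand inside Nfix, G430095P16Rik shares 137 exon bases with it and was at 1.19 to 2.42 FPKM, and Lyl1 shares 4 and was at 0.159 to 0.970 FPKM. Both were far below Nfix.

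Nfib, Nfia and Nfic were not called, and their groups overlapped. Nfib, which is needed for cortical axon tracts and for glial cells, lies on chromosome 4 from 82290173 to 82705750. It was at 179 and 211 FPKM in wild-type cortex and at 187 and 204 FPKM in the mutants, so both mutants lay between the wild types. The log2 difference was 0.0086 (SE 0.10, 95% interval -0.24 to 0.26, adjusted p = 0.974). The antisense RNA Gm11266, which lies within Nfib and shares none of its exon bases, was at 18.8 to 22.7 FPKM in the 4 libraries.

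Nfia, the NFI gene best known for starting astroglial fate, lies on chromosome 4 from 97772734 to 98118874. It was at 26.2 and 32.9 FPKM in wild-type cortex and at 26.4 and 27.3 FPKM in the mutants. Both mutants again lay within the wild-type range, and the log2 difference was -0.13 (SE 0.12, 95% interval -0.44 to 0.19, adjusted p = 0.641). E130114P18Rik, annotated head to head with Nfia and sharing 4 exon bases with it, was at 12.1 and 16.1 FPKM in wild-type cortex and at 13.5 and 13.9 FPKM in the mutants.

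Nfic, studied mostly in tooth roots and other tissues outside the brain, lies on chromosome 10 from 81396186 to 81455635. It was at 8.57 and 7.20 FPKM in wild-type cortex and at 8.15 and 7.72 FPKM in the mutants, with a log2 difference of 0.014 (SE 0.14, 95% interval -0.34 to 0.37, adjusted p = 0.971). The intervals of Nfia, Nfib and Nfic reached at most 0.44 below and 0.37 above 0 on the log2 scale, so smaller changes in either direction remain possible.

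Nfib and Nfix made up most NFI RNA in every library. The 4 genes summed to 502 and 584 FPKM in wild-type cortex and to 479.5 and 462 FPKM in the mutants, and the sums did not overlap between groups. Nfix held 57.5% and 57.1% of that sum in the wild types and 53.8% and 48.3% in the mutants, while Nfib held 35.5% and 36.03% and then 38.97% and 44.1%. Nfix therefore remained the most abundant of the 4 in all libraries, by a smaller margin in the mutants. The ratio of Nfix to Nfib, which does not depend on the scaling between libraries, was 1.62 and 1.59 in the wild types and 1.38 and 1.096 in the mutants. The exact two-sided permutation test of this ratio gave p = 0.333, the smallest that 2 against 2 libraries allow, and the ratio was chosen after the values were seen. Both mutants lay below both wild types, and they lay further apart than the wild types did.

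**Figure D2:**
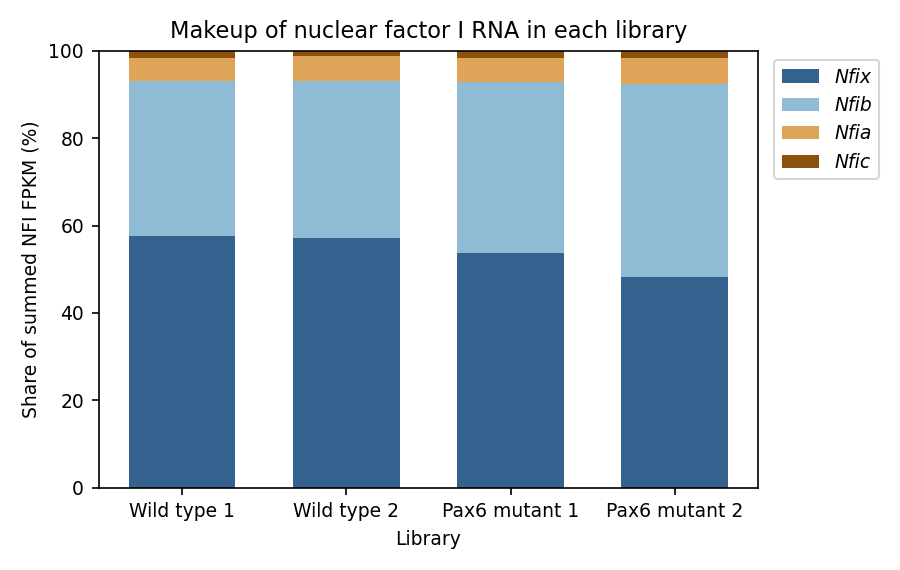
Share of each NFI gene in the summed FPKM of the 4 NFI genes, in percent, for each library. Nfix takes 57.5% and 57.1% in the wild types and 53.8% and 48.3% in the mutants, and Nfia and Nfic stay small in all 4.

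Bcl6 was the only one of the 7 genes to be called, and it fell in the mutants. Bcl6 lies on chromosome 16 from 23965052 to 23988852, on the minus strand. It was at 9.55 and 11.3 FPKM in wild-type cortex and at 2.92 and 3.41 FPKM in the mutants. Both mutants lay well below both wild types, and the replicates of each group were close. The group means were 10.4 ± 1.21 and 3.16 ± 0.344 FPKM (SD, n = 2), a log2 difference of -1.57 (SE 0.16, 95% interval -1.98 to -1.17, limma adjusted p = 0.0204). In the authors' deposited table the ratio for Bcl6 is 0.304 and the p-value 0.119, so the same fall was not past 0.05 in their test. Without any 1 of the 4 libraries the log2 difference stayed between -1.69 and -1.46, but the call was lost: the adjusted p was 0.142 and 0.179 when wild-type library 1 or 2 was left out, and 0.0879 and 0.113 when mutant library 1 or 2 was. Testing all genes, however low, gave 0.066, and dropping limma's trend gave 0.0575.

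The sequences in front of the Bcl6 starts are shown because Bcl6 is the member whose RNA fell, and because Bcl6 protein is known to repress its own gene. RefSeq gives 2 start sites on GRCm38.p6, and the 250 bases before each are printed from 5′ to 3′ on the gene's strand. Both strands were searched for a Bcl6 core, TTCCTNGAA, and for the E-box CAGATG, the form that Neurog2 and Zbtb18 are known to bind; capitals mark a match. The first window is chr16:23988853-23989102 and the second, before a start inside the gene, chr16:23981284-23981533.
Bcl6 first start: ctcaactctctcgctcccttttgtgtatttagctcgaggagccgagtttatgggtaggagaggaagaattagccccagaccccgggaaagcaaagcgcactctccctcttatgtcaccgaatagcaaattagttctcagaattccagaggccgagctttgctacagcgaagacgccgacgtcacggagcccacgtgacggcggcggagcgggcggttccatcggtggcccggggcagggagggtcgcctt
Bcl6 second start: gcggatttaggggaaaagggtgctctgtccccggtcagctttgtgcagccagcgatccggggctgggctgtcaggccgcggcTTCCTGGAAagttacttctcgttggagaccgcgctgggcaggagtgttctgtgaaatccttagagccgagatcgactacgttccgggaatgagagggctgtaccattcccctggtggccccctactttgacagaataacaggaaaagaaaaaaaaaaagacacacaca
The Bcl6 core was found once, beginning 168 bases before the second start, and neither window held the E-box. The Bcl6 core was present in 1.31% of all 32851 RefSeq windows of this length and the E-box in 14.4%. Among the other members, the second of 4 Nfix windows also held a Bcl6 core. The table has windows for 6 of the 7 genes, and Nfib has none. A match is a string of letters and not a measured site.

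Zbtb18 gave the least certain value of the 7, because its mutant libraries disagreed. Zbtb18 lies on chromosome 1 from 177442351 to 177450764, on the plus strand. It was at 471 and 489 FPKM in the wild types, at 2159.7 FPKM in mutant library 1 and at 261 FPKM in mutant library 2. Mutant library 1 was 4.496 times the wild-type mean and mutant library 2 was 0.543 times that mean, so the mutants lay on opposite sides of the wild types and differed from each other 8.28-fold. With all 4 libraries the log2 difference was 0.64 with an SE of 0.96 (95% interval -1.82 to 3.11, limma adjusted p = 0.770), which gives no direction. Without mutant library 1 it was -0.88 (adjusted p = 0.0530), and without mutant library 2 it was 2.17 (adjusted p = 0.0129). Each of these rests on 1 mutant library that is assumed to vary like the wild types.

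In the authors' deposited table Zbtb18 has a ratio of 2.52 and a p-value of 6.81e-75, the 12th smallest of the 22770 genes. The group value behind that ratio, 1210.2 FPKM, is the mean of 2 libraries of which neither lies near it. Among 13121 tested protein-coding genes, 19 had a larger gap between the 2 mutants on the log2 scale. GENCODE M21 lists 12 transcripts for Zbtb18, of 100 to 4944 bases, and the deposited gene values do not separate them. Gm26801, an RNA annotated on the opposite strand that shares 54 exon bases with Zbtb18, was at 9.35 and 12.7 FPKM in wild-type cortex and at 10.6 and 8.35 FPKM in mutant libraries 1 and 2. The high level of mutant library 1 was not seen in this antisense RNA.

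**Figure D3:**
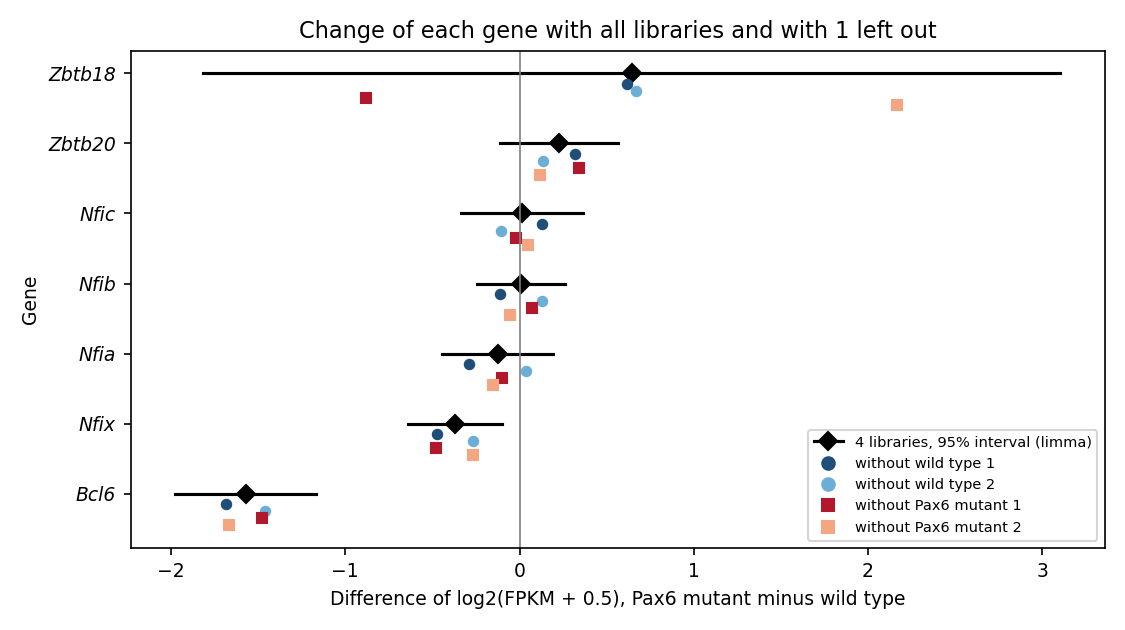
Difference of log2(FPKM + 0.5), Pax6 mutant minus wild type, of each gene with all 4 libraries (diamond, with the 95% interval from limma) and with 1 library left out (circles and squares). Bcl6 stays between -1.69 and -1.46, whereas Zbtb18 goes from -0.88 without mutant 1 to 2.17 without mutant 2.

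Zbtb18 has 5 RefSeq start windows, and the first is printed because it lies at the start of the annotated gene and holds the E-box that Zbtb18 protein is known to bind. It is chr1:177442101-177442350 on the plus strand of GRCm38.p6, with the match in capitals.
Zbtb18 first start: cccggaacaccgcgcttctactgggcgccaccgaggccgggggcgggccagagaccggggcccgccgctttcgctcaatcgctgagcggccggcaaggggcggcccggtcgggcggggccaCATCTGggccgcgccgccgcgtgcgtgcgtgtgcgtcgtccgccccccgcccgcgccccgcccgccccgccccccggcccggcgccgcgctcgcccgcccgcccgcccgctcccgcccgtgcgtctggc
The match reads CATCTG on this strand, the reverse complement of CAGATG, and begins 129 bases before the start. All 5 Zbtb18 windows hold 1 E-box each. Windows 2 and 3 overlap and share theirs. The E-box stands in 14.4% of all windows of this length.

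Zbtb20 was not called. The gene lies on chromosome 16 from 42875881 to 43642602, the longest span of the 7 at 767 kb. It was at 11.99 and 10.5 FPKM in wild-type cortex and at 12.2 and 14.3 FPKM in the mutants. Both mutants were above both wild types, mutant library 1 by a narrow margin. The log2 difference was 0.23 (SE 0.13, 95% interval -0.11 to 0.57, limma adjusted p = 0.419). Genes of hippocampus and cortical hem, where Zbtb20 is typically high, were low in these dissections: the 6 listed summed to 4.01 and 3.32 FPKM in wild-type cortex and 9.15 and 6.73 FPKM in the mutants, and 0 of the 3 tested were called. Prox1 had the smallest p of these at 2.35 and 1.38 FPKM in wild types and 6.34 and 5.35 FPKM in mutants (limma adjusted p = 0.0584). Its level made up most of the list's sum in both mutants, and which cells its RNA came from was not tested. Lef1, a Wnt effector, was at 1.007 and 1.14 FPKM against 1.99 and 0.970 FPKM. Wnt3a was listed at 0 in 3 libraries and Wnt8b in 3.

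The wider family of BTB zinc finger genes was called at a share near that of all tested genes. The table holds 47 family genes, of which 45 were tested, 1 fell (Bcl6) and 0 rose, with a median log2 difference of 0.027. The called share was 2.22%, beside 3.48% over all tested genes. At an unadjusted p under 0.05 there were 4 of 45, beside 2997 of 15399. Besides Bcl6 these were Zbtb16, Zbtb38 and Patz1, chosen here for that p after their values were seen. Zbtb16, also called PLZF, a factor that keeps progenitors dividing, was at 1.497 and 1.49 FPKM in wild types and 2.82 and 2.88 FPKM in mutants (adjusted p = 0.114). Zbtb38, a methyl-DNA binding repressor, was at 16.04 and 10.98 FPKM in wild types and 7.92 and 8.62 FPKM in mutants (adjusted p = 0.173). Patz1 was at 27.1 and 26.6 FPKM against 31.9 and 30.98 FPKM (adjusted p = 0.187). Zbtb18, Zbtb12 and Patz1 had the highest mean levels of the family, with Zbtb12 at 62.4 FPKM in either wild type and at 65.2 and 69.2 FPKM in mutant cortex. Without Zbtb18, Zbtb20 and Bcl6 the family summed to 456 and 441 FPKM in wild-type cortex and 443 and 469.7 FPKM in the mutants, so the sums overlapped.

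**Figure D4:**
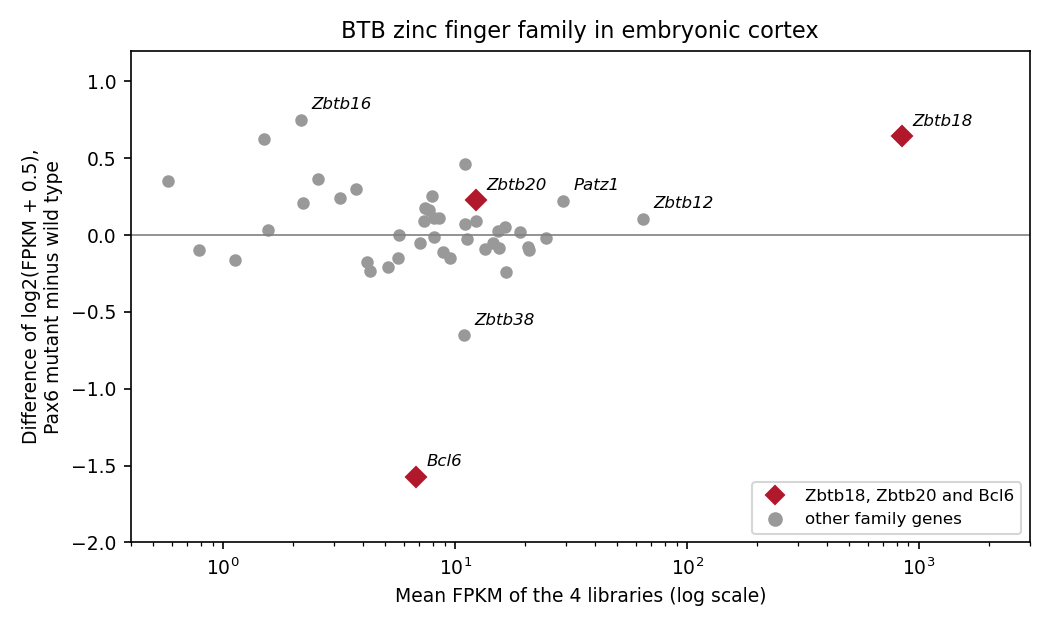
Mean FPKM of the 4 libraries (log axis) against the difference of log2(FPKM + 0.5), mutant minus wild type, for 45 BTB zinc finger genes, with Zbtb18, Zbtb20 and Bcl6 as diamonds. Bcl6 lies lowest at -1.57, and Zbtb18 is the most abundant and lies at 0.64 with mutants on opposite sides of the wild types.

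Among genes that NFI factors are known to regulate, 9 were listed and 8 tested. Of these 2 rose (25%, beside 3.48% over all tested genes) and 0 fell, with a median of -0.017. The 2 were Ezh2, the Polycomb methyltransferase that NFI factors are known to repress (93.5 ± 2.04 to 129 ± 6.15 FPKM, log2 difference 0.46, limma adjusted p = 0.0344), and Sox9, a glial and stem cell factor (8.01 ± 1.002 to 14.0 ± 0.431 FPKM, 0.78, adjusted p = 0.0482). Fabp7, a radial glial lipid-binding protein gene with NFI sites, was at 719 and 540.1 FPKM in wild types and 526 and 525 FPKM in mutants and was not called. Gfap, the astrocyte filament gene, was near the limit of detection, at 0.199 to 1.38 FPKM.

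Genes of gliogenesis held both called and uncalled members. Among 13 signalling genes and regulators 2 rose (15.4%, beside 3.48% over all tested genes), Notch1 (10.03 ± 0.706 to 19.5 ± 2.98 FPKM, log2 difference 0.92, adjusted p = 0.0400) and Sox9, and 0 fell, with a median of 0.23. Of 17 astroglial genes 15 were tested, 2 fell (13.3%) and 0 rose, with a median of 0.20. Those that fell were Aldoc, the brain aldolase (40.8 ± 0.221 to 12.5 ± 0.736 FPKM, -1.67, adjusted p = 0.00466), and Tnc, a matrix protein gene of radial glia (29.9 ± 0.559 to 10.8 ± 2.69 FPKM, -1.45, adjusted p = 0.0281). Of 5 oligodendrocyte precursor genes 0 were called, and their summed level was 30.1 and 15.1 FPKM in wild types and 30.01 and 22.7 FPKM in mutants. The most abundant of them, Olig1, was at 15.2 and 6.35 FPKM in wild types against 12.3 and 9.19 FPKM, and Olig2 at 8.48 and 4.37 FPKM against 11.3 and 9.63 FPKM. Among astroglial genes that were not called, Apoe, a lipid carrier gene, was at 30.2 and 25.7 FPKM in wild types against 65.2 and 42.3 FPKM, and Gja1, the connexin 43 gene, at 3.52 and 2.92 FPKM against 9.75 and 5.87 FPKM. The 2 astroglial genes under the filter were Aqp4, at 0.210 to 0.685 FPKM, and S100b, at 0.0752 to 0.165 FPKM.

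Genes that Zbtb18 is known to repress did not move together. Of 7 tested, 4 were called (57.1%, beside 3.48% over all tested genes). Of those 2 rose and 2 fell, and the median of the 7 was -0.16. The proneural genes fell: Neurog2 was at 27.1 and 38.2 FPKM in wild types and 2.39 and 1.19 FPKM in mutants, and Neurod1 at 15.6 and 17.8 FPKM against 3.08 and 1.73 FPKM (limma adjusted p = 0.0130 and 0.0196). The 2 that rose are inhibitors of bHLH factors, Id4 from 20.4 ± 2.38 to 34.99 ± 2.06 FPKM and Id1 from 7.32 ± 1.38 to 14.3 ± 0.44 FPKM (limma adjusted p = 0.0357 and 0.0484). The Id genes did not all rise. Id2, by far the most abundant of them, was at 427 and 399 FPKM in wild types and 396 and 346 FPKM in mutants (log2 difference -0.16). Id3 was at 6.83 and 3.70 FPKM against 12.8 and 8.66 FPKM. Neither was called (limma adjusted p = 0.383 for Id2 and 0.199 for Id3). Rnd2, a small GTPase gene of migrating neurons, was at 60.6 and 73.7 FPKM in wild types and 40.9 and 30.5 FPKM in mutants and was not called (adjusted p = 0.0646).

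Among Bcl6 partners and known targets 2 of 11 rose (18.2%, beside 3.48% over all tested genes) and 0 fell, with a median of 0.12. Bcor, a corepressor that binds the BTB domain of Bcl6, rose from 11.04 ± 0.73 to 17.5 ± 0.884 FPKM (log2 difference 0.64, adjusted p = 0.0467), and Ccnd2, the cyclin D2 gene, from 58.9 ± 3.57 to 304.5 ± 41.2 FPKM (2.36, adjusted p = 0.00440). The Notch target Hes5, which Bcl6 is known to silence, was at 10.7 and 8.86 FPKM in wild types and 12.7 and 13.7 FPKM in mutants and was not called (adjusted p = 0.180). Hes1 was at 4.72 and 6.58 FPKM against 6.75 and 4.26 FPKM, with groups that overlapped. The deacetylase gene Sirt1, a Bcl6 partner at Notch targets, was at 14.3 and 14.5 FPKM against 13.5 and 16.6 FPKM. By sign alone, 7 of the 11 lay above 0 and 4 below. Those below were Hes1, Hey1, Nrarp and Ccnd1, with log2 differences of -0.049, -0.047, -0.12 and -0.16. Ccnd1, the other cyclin gene listed, was at 11.4 and 11.2 FPKM in wild types and 10.2 and 9.90 FPKM in mutants (limma adjusted p = 0.455).

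Layer factors, which mark the maturing neurons in which Bcl6 and Zbtb18 are expressed, were mostly lower. Of 13 tested, 7 fell (53.8%, beside 3.48% over all tested genes) and 0 rose, with a median of -0.50. Tbr1, a factor of deep-layer neurons, fell from 114 ± 4.32 to 62.4 ± 4.36 FPKM and Pou3f2, a factor of upper-layer neurons, from 96.6 ± 5.57 to 55.4 ± 3.61 FPKM (log2 differences -0.87 and -0.80, limma adjusted p = 0.0152 and 0.0197), and Pou3f3 by 0.53 on the log2 scale (adjusted p = 0.0280). Of the 13, 2 had a difference above 0, and neither was called. Bcl11b was at 29.5 and 31.5 FPKM in wild types and 36.6 and 42.9 FPKM in mutants (log2 difference 0.37, limma adjusted p = 0.141). Fezf2 differed by 0.0084 on the log2 scale. Over the distinct genes of all lists and the BTB family, 28 were called. That number dropped to 1 when either wild-type library was left out, to 10 when mutant library 1 was and to 4 when mutant library 2 was.

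**Figure D5:**
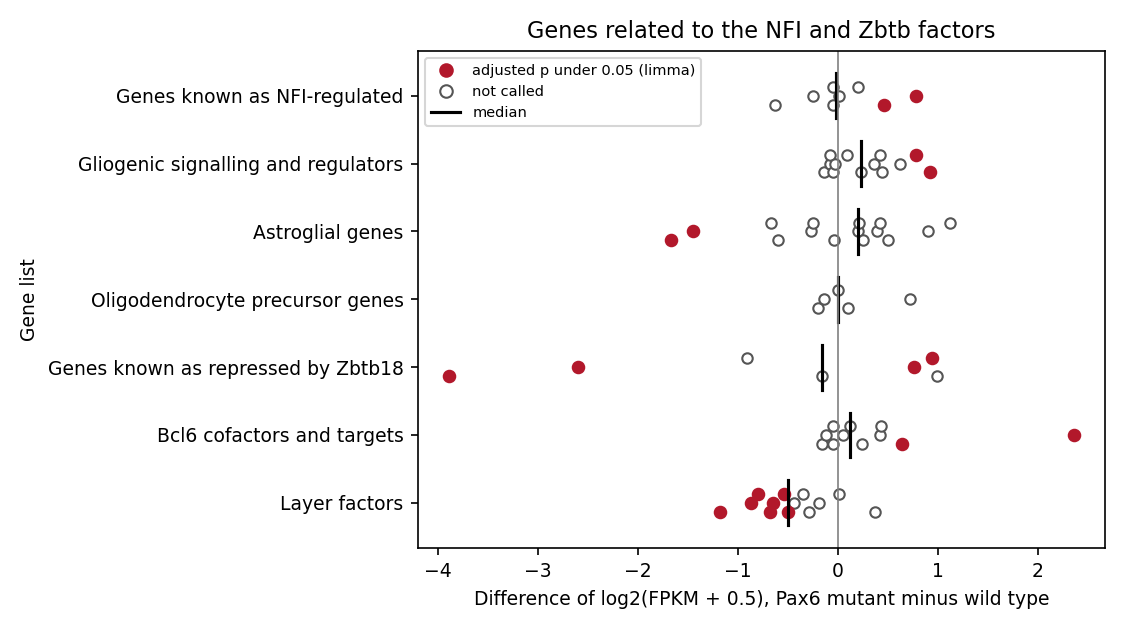
Difference of log2(FPKM + 0.5), mutant minus wild type, of each tested gene of 7 lists related to the NFI, Zbtb18 and Bcl6 factors, filled where called by limma, with a vertical bar at the list's median. Layer factors lie lowest with a median of -0.50, and the genes known as repressed by Zbtb18 split to both sides, from Neurog2 at -3.88 to Id3 at 0.99.

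The genes whose pattern over the 4 libraries was most like a member were found by the distance between log2(FPKM + 0.5) values after each gene's mean was subtracted, among genes of at least 5 FPKM. For Bcl6 they were Pde1b, a cyclic nucleotide phosphodiesterase gene (distance 0.19), Aldoc (0.19) and Tmem158 (0.21). Pde1b was at 27.1 and 29.8 FPKM in wild types and 8.92 and 8.67 FPKM in mutants, and Tmem158 at 13.7 and 16.2 FPKM against 4.84 and 4.47 FPKM. For Nfix they were Rps6kl1 (0.020), Echdc2 (0.026) and Smarcal1 (0.043), and for Zbtb20 Lman2l (0.037), Mrpl24 (0.040) and Ppp4r3a (0.041). With 4 libraries a small distance is easily met, and it describes these values only.

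Other cell types in the dissection differed between libraries. Meningeal collagen and matrix genes, 5 listed, summed to 3.59 and 2.40 FPKM in wild-type cortex and to 26.5 FPKM in mutant library 1 and 5.83 FPKM in mutant library 2, and vessel genes, 8 listed, to 68.7 and 64.8 FPKM in wild-type cortex and 96.6 and 78.7 FPKM in the mutants, with 0 called in either list. Microglial genes, 6 listed, lay at 15.1 to 21.1 FPKM summed, red cell genes, 5 listed, at 1558 to 1814 FPKM, and choroid plexus genes, 3 listed, at 0.112 to 1.81 FPKM, with 0 called in each and Folr1 and Clic6 listed at 0 in both mutants. The part of these cells in the NFI, Zbtb18, Zbtb20 and Bcl6 values was not tested.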

How the data were processed

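The authors deposited 1 table that gives, per the file headers, each gene's FPKM in every library and in each group, with a fold (mutant FPKM divided by wild-type FPKM) and a p-value. TopHat2 2.0.9, Cufflinks 2.2.1, edgeR and the builds GRCm38.p4 and mm10 appear, without roles, in the submitters' processing notes. Neither strand use nor the test behind the p-value is stated there. The group FPKM equalled the library mean within 0.01% for 94.7% (mutant) and 92.9% (wild type) of genes.

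Identifiers of 22599 of 22770 genes matched the reference table. The 15399 genes with at least 0.5 FPKM in 2 libraries were put on the log2(FPKM + 0.5) scale and fitted with limma 3.58.1 (R 4.3.3; lmFit and eBayes with trend), with Benjamini-Hochberg adjustment over all of them. Alternatives were other pseudocounts, filters and scalings, no trend, a replicate block and leaving out each library. The script was tested on simulated data of 4 libraries, with 50 genes changed at each fold. It called 14% of the 1.5-fold, 70% of the 2-fold and 98% of the 4-fold changes. Most changes of 1.5-fold were therefore missed there. Coordinates, counted from 1, are from GENCODE M21 (GRCm38), and start windows from RefSeq (GRCm38.p6). The 7 genes and the lists were chosen with earlier results of these data known. From each list the rule named up to 4 called genes by p, or else up to 2 of the highest. 1 gene that the rule named is not reported here. Fabp7, Gfap, Apoe, Gja1, Aqp4, S100b, Rnd2, Id2, Id3, Hes5, Hes1, Sirt1, Wnt3a and Wnt8b fall outside the rule and were named after their values were seen. The same holds for Bcl11b, Fezf2, Ccnd1, Hey1 and Nrarp. Genes named as opposite strand of a Zbtb gene were left out of the family.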

Additional observations from a re-analysis of the deposited data

How the results depend on the processing

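The depth behind each value is not given as counts, so counting error could not be computed, and with 2 libraries a group the spread rests on few values. The count of called genes was 536, with 2997 at an unadjusted p under 0.05. Testing every gene, however low, gave 61, and dropping limma's trend gave 54; these settings called 7 and 6 genes of the related lists and 0 of the 7 members. Leaving out 1 library gave 7 to 59 called genes, 1 to 10 of the related lists, and 0 to 1 of the members. The 1 was Zbtb18 without mutant library 2 (log2 difference 2.17). Zbtb18 turned to -0.88 without mutant library 1. Nfib turned to -0.0055 with quantile normalization, -0.11 without wild-type library 1 and -0.053 without mutant library 2. Nfic turned to -0.0090 with quantile normalization, -0.10 without wild-type library 2 and -0.022 without mutant library 1, and Nfia to 0.036 without wild-type library 2. Over the 4 fits with 1 library left out, Nfia ranged from -0.29 to 0.036, Nfib from -0.11 to 0.13 and Nfic from -0.10 to 0.13. Nfix and Zbtb20 kept their direction and stayed without a call in all 13 alternatives, with adjusted p of 0.135 to 0.452 and 0.354 to 0.767. Bcl6 kept its direction in all 13 and its call in 7. With the replicate number as a block, 374 genes, 25 of the related lists and 1 member were called; the deviations of same-numbered libraries correlated at 0.049, and the labels give the number no meaning. The cause of these differences was not tested.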

Other observations

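Zbtb18 was not alone in having 1 library far from the rest. Among 13121 tested protein-coding genes, 15 had 1 library at least 4-fold above the next, with the other 3 within 2-fold of each other all on the log2(FPKM + 0.5) scale, and a highest value of at least 10 FPKM, a rule set after the Zbtb18 values were seen. The high library was wild-type library 1 for 6 genes, wild-type library 2 for 1, mutant library 1 for 4 and mutant library 2 for 4. Dnajb6 was at 798 FPKM in mutant library 1 and at 134 to 137 FPKM elsewhere. Suco was at 614 FPKM in mutant library 2 and at 15.9 to 18.4 FPKM elsewhere, and Lasp1 at 624 FPKM there and at 43.1 to 44.4 FPKM elsewhere. Retreg2 was at 587 FPKM in wild-type library 2 and at 43.04 to 56.6 FPKM elsewhere.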
